A study of Mus musculus with 3 samples.

Results

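The genes described are 9 genes that cone photoreceptors use to detect light: the cone opsins *Opn1sw* and *Opn1mw*, the cone arrestin *Arr3*, the cone transducin subunits *Gnat2* and *Gngt2*, the cone phosphodiesterase subunits *Pde6c* and *Pde6h*, the channel subunit *Cngb3*, and *Thrb*, the gene of thyroid hormone receptor beta. They were chosen by symbol, and all 9 were found among the 32287 features of the library matrices and among the 26167 genes of the series-wide counts table. Droplet single-cell libraries were made from retinas of Glast-CreER; Rosa26-tdTomato mice, in which tamoxifen from P20 labels Müller glia (MG) with tdTomato through a Cre driven by the glial *Glast* promoter, and cells were sorted for tdTomato before capture. All mice received AAV7m8 vectors into the eye at P28 and retinas were taken at P51. By the paper, only the areas of retina with strong GFP were dissected for the sort, so the area sampled can differ between libraries. The control group had AAV7m8-GFAP-GFP-LacZsh, the CCA group AAV7m8-GFAP-cyclin D1-p27sh mixed at 9 to 1 with AAV7m8-GFAP-GFP-LacZsh, and the CCANT group the CCA vectors followed by NMDA at P35 and TSA at P37. In these vectors a *GFAP* promoter drives the transgene in glia, so cones were not the intended target. Each group was 1 library of 2 to 4 pooled retinas. With 1 library per group no test between groups was possible, and the intervals below are exact 95% Poisson intervals for UMI counts or Clopper-Pearson intervals for shares of cells, so they describe counting error only, without the spread between mice.

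In a cone, light isomerises the chromophore of an opsin, the opsin activates transducin, and transducin releases the inhibition of the cone phosphodiesterase. The fall in cyclic GMP closes the cyclic nucleotide-gated channel, and arrestin ends the response by binding the phosphorylated opsin. Rods run the same cascade with their own paralogs. Mouse cones carry a short-wavelength opsin, encoded by *Opn1sw*, and a middle-wavelength opsin, encoded by *Opn1mw*, and many mouse cones make both, in proportions that differ between the dorsal and the ventral retina. *Thrb* is required in development for *Opn1mw* expression and for restricting *Opn1sw*.

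Sequences immediately upstream of the transcription start are shown for both opsin genes, for *Gnat2* and for *Thrb*, since the opsins ran against each other across cones in the values below, *Gnat2* is a member that most cones share, and *Thrb* encodes a receptor of the family that binds one of the motifs. They come from RefSeq promoters on GRCm38.p6, which listed 6 of the 9 genes, and *Gngt2*, *Pde6c* and *Cngb3* were not matched. Each is the 250 bases before the start, 5′ to 3′ on the gene's strand. Capitals mark GGATTA or its reverse complement TAATCC, a core bound by photoreceptor homeodomain factors such as CRX, and AGGTCA or TGACCT, a core bound by nuclear receptors, called the receptor motif here. The lines are *Opn1sw* at chr6:29380514-29380763 (minus strand), *Opn1mw* at chrX:74127216-74127465 (plus), *Gnat2* at chr3:108092816-108093065 (plus) and the first listed start of *Thrb* at chr14:17660710-17660959 (plus).
Opn1sw: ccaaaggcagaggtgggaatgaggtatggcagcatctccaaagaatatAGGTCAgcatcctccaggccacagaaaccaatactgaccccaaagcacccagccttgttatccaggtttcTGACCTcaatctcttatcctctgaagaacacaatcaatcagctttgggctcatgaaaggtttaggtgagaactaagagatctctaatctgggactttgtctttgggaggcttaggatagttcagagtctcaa
Opn1mw: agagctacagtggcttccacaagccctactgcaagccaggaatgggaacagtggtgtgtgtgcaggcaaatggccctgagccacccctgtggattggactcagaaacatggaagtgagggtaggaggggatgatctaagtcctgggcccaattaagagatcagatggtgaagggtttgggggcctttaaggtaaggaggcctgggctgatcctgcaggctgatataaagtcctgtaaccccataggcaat
Gnat2: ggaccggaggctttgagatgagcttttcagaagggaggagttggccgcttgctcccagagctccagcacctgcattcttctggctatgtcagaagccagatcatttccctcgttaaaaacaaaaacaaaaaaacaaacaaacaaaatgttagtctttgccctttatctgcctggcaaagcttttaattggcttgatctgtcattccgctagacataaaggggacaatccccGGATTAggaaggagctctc
Thrb: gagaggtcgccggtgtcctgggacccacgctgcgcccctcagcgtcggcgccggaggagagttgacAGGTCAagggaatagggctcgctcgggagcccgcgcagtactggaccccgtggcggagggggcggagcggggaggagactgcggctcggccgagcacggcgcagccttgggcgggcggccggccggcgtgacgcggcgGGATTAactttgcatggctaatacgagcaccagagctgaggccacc

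The *Opn1sw* window held 2 receptor motifs, starting 202 and 132 bases before the start, and the *Opn1mw* window held neither motif, nor did those of *Arr3*, *Pde6h* and the second listed start of *Thrb*, which are not printed. *Gnat2* held 1 homeodomain core at 19 bases before the start, and *Thrb* held 1 core at 46 and 1 receptor motif at 184 bases. Searched on both strands, the core was in 6.25% and the receptor motif in 14.0% of all 32851 promoter windows of that length, and no overlap between the motifs occurred in these windows. These matches describe letters only.

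By GENCODE M21 on GRCm38, *Opn1mw* (X, 74127464 to 74150760) and *Arr3* (X, 100605497 to 100618493) are X-linked, and the other 7 genes are autosomal. *Gngt2* overlaps *Abi3* and *Pde6h* overlaps *Arhgdib* on the other strand, and *Opn1sw* overlaps *Calu* by 440 bases. The strand setting of the counting is not given in the sources used here, so reads of a member and its antisense partner may not be separable. In cones, the partners *Abi3* and *Arhgdib* stood at 24.7 to 33.8 CPM and 48.7 to 67.5 CPM (UMIs per 1000000 UMIs of all genes in the summed cells).

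Cones were not the target of the tdTomato sort, and they were present in each library. After filters of 2000 features or more, 100000 UMIs or fewer and a mitochondrial share of no more than 15%, 743 of 30990 cells formed 1 cluster in which all 9 cone markers that are not members, among them the channel subunit *Cnga3* and the retinoid receptor *Rxrg*, were raised. The members were left out of the clustering and of the naming. The cluster held 173 cones in the control library (1.81% of its cells, 1.55 to 2.09%), 285 in the CCA library (2.71%, 2.41 to 3.04%) and 285 in the CCANT library (2.62%, 2.33 to 2.93%). Median UMIs per cone were 13789, 13560 and 13382 in that order, against 5071, 4969.5 and 5049 for rods. A tdTomato UMI was found in 10.98% of control, 9.12% of CCA and 9.82% of CCANT cones. Of the 743 cones, 0 were among the 10926 cells of the series-wide table, which holds mainly MG. By the paper's methods that table was built from tdTomato+ cells, and small clusters of cell types other than MG and rods were removed. The absence of cones from it is therefore set by that selection. Between 52 and 74 barcodes were shared by each pair of libraries, and 8 cones carried a shared barcode.

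The libraries also differed in the sex of their cells. At least 3 UMIs of Y-linked genes with at most 1 *Xist* UMI were counted in 144 control, 0 CCA and 111 CCANT cones, and the opposite pattern in 0 control, 285 CCA and 122 CCANT cones. The other 29 control and 52 CCANT cones met neither rule, among them 18 CCANT cones with at least 3 UMIs of both kinds. Sex and treatment cannot be told apart between the control and the CCA library. Among the vector targets, *Cdkn1b*, the gene of p27, stood in MG of the series-wide table at 226 (control), 84.7 (CCA) and 107 CPM (CCANT), and in cones at 101, 53.4 and 68.1 CPM. *Ccnd1*, the gene of cyclin D1, stood at 213, 137 and 128 CPM in MG and at 41.3, 18.8 and 26.4 CPM in cones in the same order, and whether transcripts of the vector are counted under this gene is not given in the sources used here.

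All members except *Thrb* were far higher in cones than in rods. In each library 8 of the 9 genes were at least 2-fold higher in cones, beside 15.5% (control), 12.7% (CCA) and 15.1% (CCANT) of all genes tested. The median log2 ratio of the 9 genes was 8.33, 7.90 and 7.56 in that order, against -0.01, -0.03 and 0.01 over all genes. The 8 genes lay between 4.58 and 37.9 CPM in rods, and together they made 26815 (control), 31733 (CCA) and 29592 (CCANT) of every 1000000 cone UMIs.

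**Figure D1:**
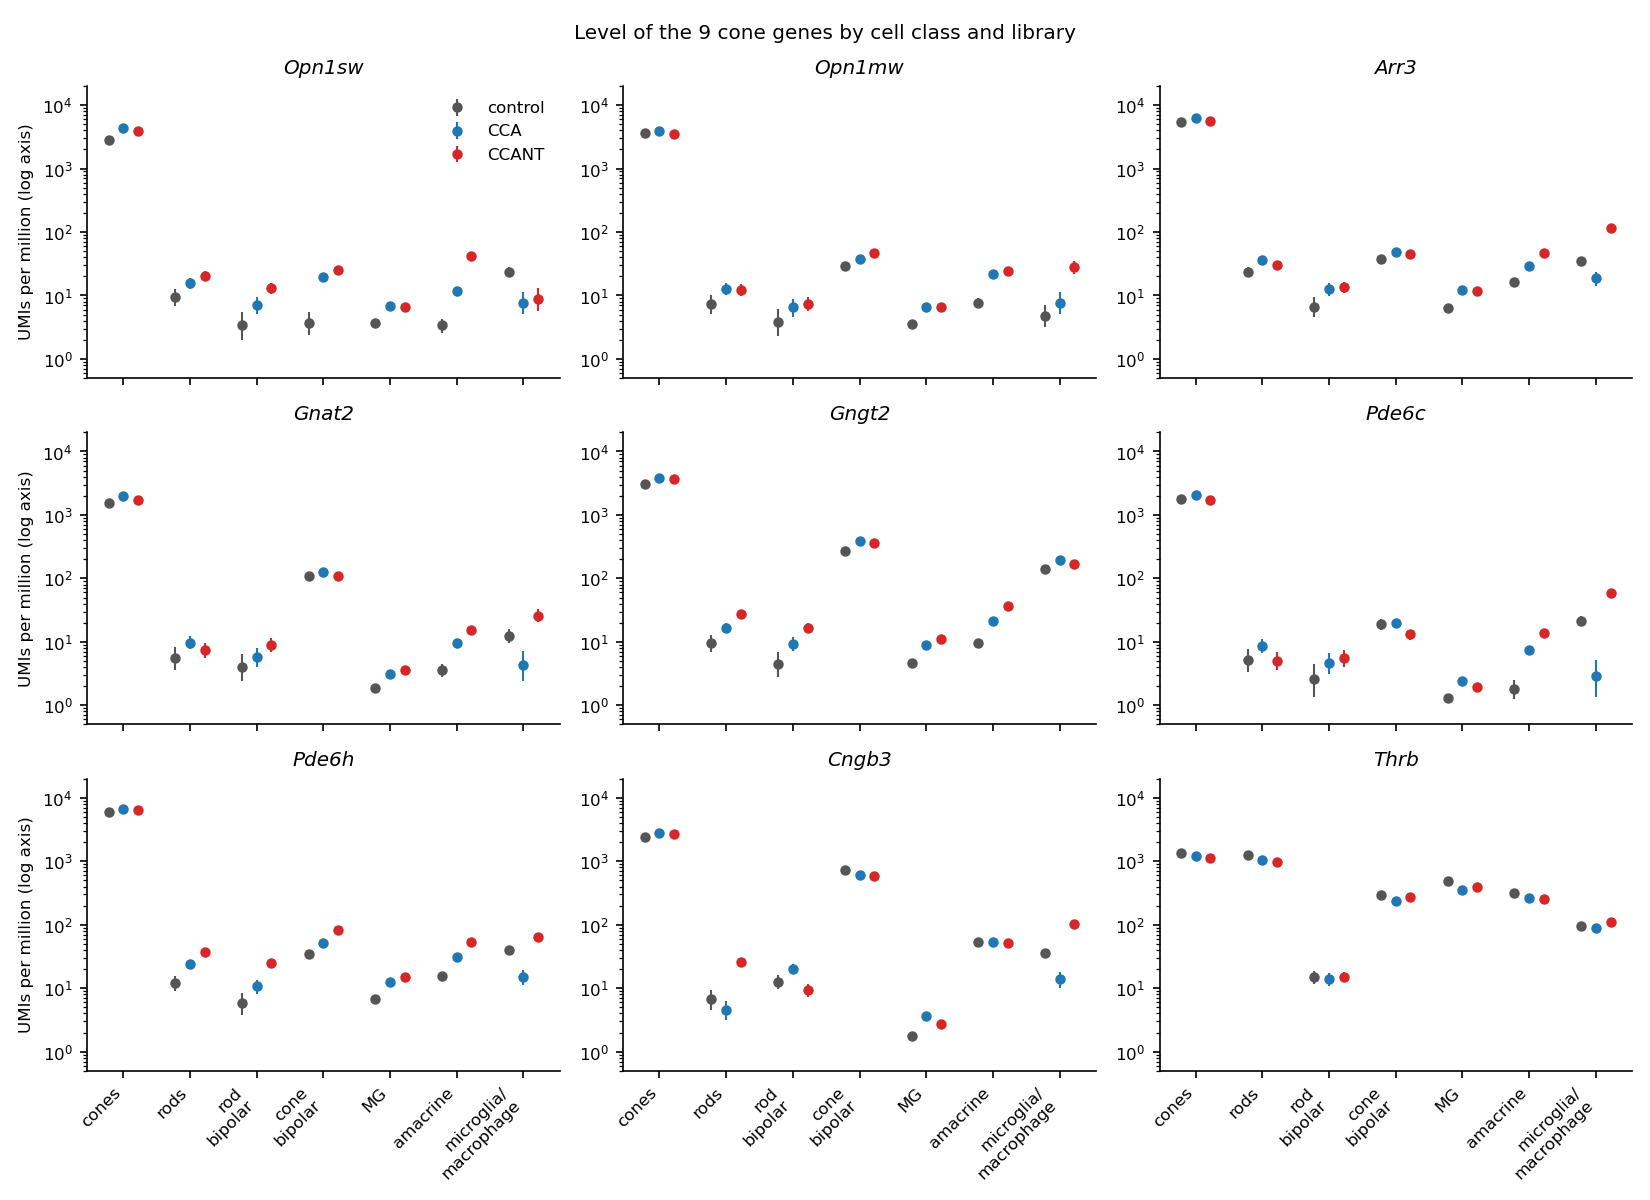
CPM (UMIs per 1000000 UMIs, log axis) of each of the 9 genes by cell class, with 1 point per library and exact 95% Poisson bars. The cone points stand above 1000 CPM for every gene, and *Thrb* stands apart in that its rod points reach 971 to 1275 CPM beside 1133 to 1335 CPM in cones.

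Of the opsins, *Opn1sw*, the short-wavelength opsin, was at 2799.5 (control, 2737 to 2863), 4302 (CCA, 4239.8 to 4365) and 3952 CPM (CCANT, 3894 to 4009.8) in cones. *Opn1mw*, the middle-wavelength opsin, was at 3644 CPM (3572 to 3716), 3892 (3833 to 3952) and 3564 (3509.7 to 3619.6) in that order. The control library was thus the lowest of the 3 for *Opn1sw* and lay between the others for *Opn1mw*. In rods, *Opn1sw* was at 9.49, 15.5 and 20.5 CPM and *Opn1mw* at 7.33, 12.7 and 12.1 CPM. A single CCANT rod held 53 of the 146 *Opn1sw* UMIs, and without the 1 CCA and 1 CCANT rod richest in cone UMIs *Opn1sw* was at 14.0 and 13.1 CPM.

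For the transducin genes, *Gnat2*, the alpha subunit that the opsin activates, was at 1569 (control), 1976 (CCA) and 1736 CPM (CCANT) in cones. *Gngt2*, the gamma subunit that anchors transducin to the membrane, was at 3078, 3771 and 3748 CPM. Both were lowest in control cones. Their folds over rods ranged from 204 to 280 for *Gnat2* and from 137 to 324 for *Gngt2* over the libraries.

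Among the phosphodiesterase genes, *Pde6c*, the catalytic subunit that hydrolyses cyclic GMP, was at 1789 (control), 2081 (CCA) and 1694 CPM (CCANT) in cones. *Pde6h*, the inhibitory subunit, was at 6039, 6704 and 6538 CPM and supplied 16505, 28244 and 29750 UMIs, more than any other member. *Pde6c* was the only one of the pair with its lowest cone level in CCANT. Their folds over rods ranged from 241 to 346 and from 173 to 500.

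*Cngb3*, the beta subunit of the cone channel, was at 2457 (control), 2839 (CCA) and 2649 CPM (CCANT) in cones. Its rod level was 6.69, 4.58 and 25.7 CPM, the CCANT value resting on a single rod with 93 of the 183 UMIs, without which it was 12.7 CPM. *Arr3*, the cone arrestin, was at 5438, 6168 and 5711 CPM in cones and at 23.5, 36.0 and 30.2 CPM in rods. *Arr3* was detected in 98.8 to 100% of cones after every cell had been thinned to 3000 UMIs, against 5.88 to 7.99% of rods.

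*Thrb*, which encodes a nuclear receptor, was at 1335 (control, 1292 to 1379), 1202 (CCA, 1169 to 1235) and 1133 CPM (CCANT, 1103 to 1165) in cones. Rods stood at 1275 (1243 to 1308), 1054 (1031 to 1078) and 971 CPM (948 to 994) in that order. The ratio of cones over rods was thus 1.05 to 1.17, and it was below 2-fold in every library. Intronic reads were counted, so UMIs of a long gene such as *Thrb* (chromosome 14, 17660261 to 18038090) can include unspliced transcripts, which these counts do not separate.

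Rod bipolar cells, the interneurons that serve rods, held little of any member. All 9 genes were at least 2-fold higher in cones than in rod bipolar cells in each library, beside 20.2%, 20.1% and 20.1% of genes in control, CCA and CCANT. *Thrb* stood at 13.8 to 15.2 CPM there, a fold of 74.4 to 89.0, and the other 8 genes at 2.57 to 24.9 CPM, the highest being *Pde6h* in CCANT, which was at 15.03 CPM without 2 cells rich in cone UMIs. All 9 were also at least 2-fold higher in cones than in MG (17.3%, 16.0% and 16.0% of genes), and *Thrb* again had the smallest fold, 2.75 to 3.38.

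Cone bipolar cells, which carry cone signals to the inner retina, differed by gene. All 9 members were at least 2-fold higher in cones, beside 10.9%, 11.3% and 10.5% of genes, but the folds ran from 3.34 to 4.63 for *Cngb3*, 4.07 to 5.15 for *Thrb*, 9.70 to 11.4 for *Gngt2* and 14.2 to 15.9 for *Gnat2*, and above 75 for the other 5 genes. Levels of *Cngb3* in cone bipolar cells were 735 (control), 613 (CCA) and 591 CPM (CCANT). A few cells held most of the remaining signal: 1 control, 4 CCA and 4 CCANT cone bipolar cells had at least 20 UMIs of *Arr3*, *Pde6h* and the opsins together, and these held 76.1%, 73.5% and 74.5% of the UMIs of those 4 genes in the class. Without them *Cngb3* was at 731, 593 and 559.8 CPM and *Gngt2* at 259, 366 and 328 CPM, while *Arr3* fell to between 9.44 and 13.6 CPM. *Arr3* was 1 of the 4 genes that chose these cells, so its fall was set by that choice.

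The signal differed among the 4 clusters of the cone bipolar class. The class leaves out 3 clusters that stayed unnamed with bipolar markers as their highest list (639, 478 and 248 cells), where *Cngb3* stood at 18.3 to 177 CPM and *Gngt2* at 18.8 to 190.4 CPM. Cluster 20 (342 cells, led by *Gabrr3*, a GABA receptor subunit) had *Cngb3* at 2069 (control), 1967 (CCA) and 1755 CPM (CCANT), which was 66.3 to 84.2% of the cone level, with a UMI in 96.5 to 98.4% of its cells at 3000 UMIs. *Thrb* in the same cells was at 735, 681 and 829 CPM, or 55.1 to 73.1% of the cone level. *Arr3* was at 11.2 to 13.2 CPM there, so the arrestin was near its level in other neurons in the cells where the channel subunit approached that of cones. The cone markers that are not members were the second list of cluster 20, at a median log2 of 1.04 beside 4.75 for bipolar markers.

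Cluster 18 (407 cells) had *Cngb3* at 692, 927 and 827 CPM and *Gngt2* at 297, 549 and 472 CPM. Its bipolar markers had a median log2 of 1.54, just above the 1.5 needed for a name, with cone markers second at 1.15. It held 0 control, 1 CCA and 4 CCANT cells rich in cone UMIs. In cluster 15 (514 cells) *Gngt2* stood at 408 to 497 CPM with *Cngb3* at only 31.4 to 63.0 CPM. Cluster 27 (171 cells) had *Cngb3* at 0 in the control library and at most 2.33 CPM in the others, and *Gngt2* at 78.2 to 101 CPM. *Cngb3* and *Gngt2* thus did not follow each other across these 4 clusters. The clusters were defined from all genes other than the members, and these values are a description with no test.

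**Figure D2:**
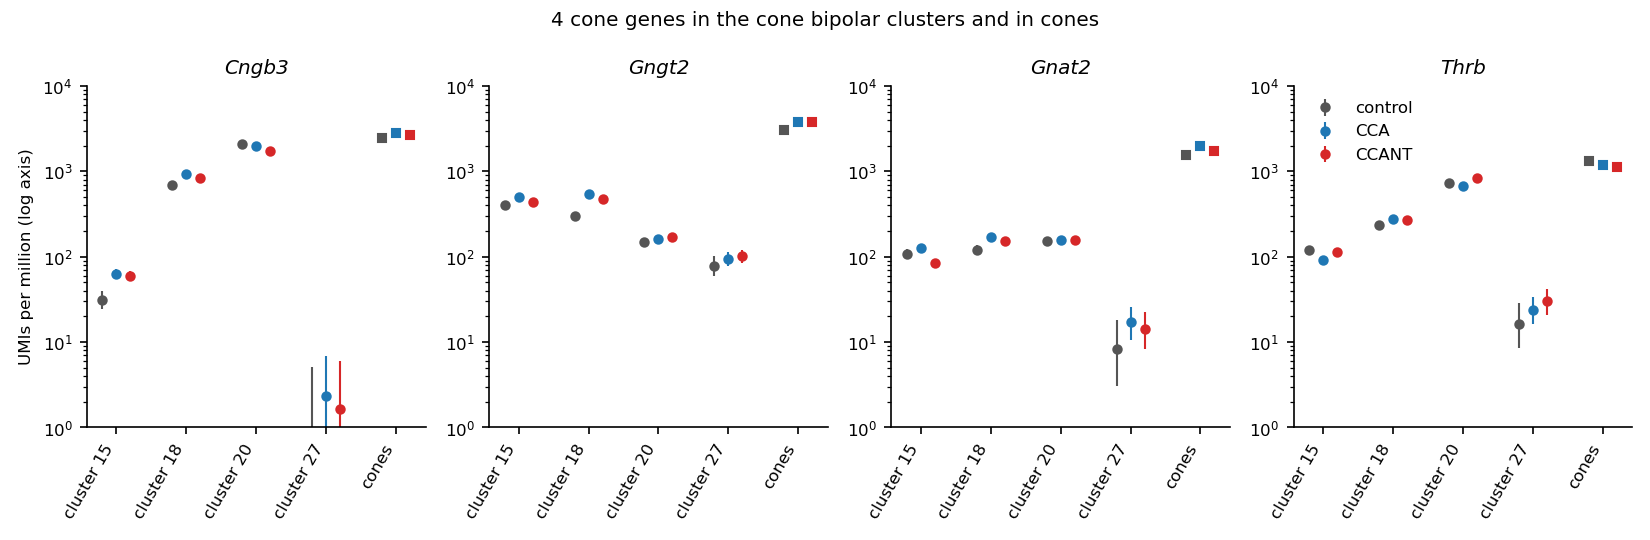
CPM (log axis) of *Cngb3*, *Gngt2*, *Gnat2* and *Thrb* in the 4 cone bipolar clusters and in cones, by library with exact 95% Poisson bars. *Cngb3* in cluster 20 lies at 1755 to 2069 CPM, near the 2457 to 2839 CPM of cones, and in cluster 27 at no more than 2.33 CPM.

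Outside the photoreceptors and bipolar cells, *Gngt2* stood at 142 (control), 192 (CCA) and 169 CPM (CCANT) in microglia and macrophages. Its antisense neighbour *Abi3*, a gene of microglia, stood at 127, 133 and 157 CPM in the same cells, and the part of *Abi3* reads in the *Gngt2* level was not tested. *Thrb* was read in amacrine cells at 312, 262 and 251 CPM and in horizontal cells at 194, 189 and 165 CPM. In amacrine cells *Cngb3* was at 54.4, 53.2 and 51.7 CPM, and at 51.3, 47.2 and 33.2 CPM without the 1, 4 and 7 cells that held at least 20 UMIs of *Arr3*, *Pde6h* and the opsins.

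The genes whose pattern was most like that of the members were found from log2(CPM + 1) over 32 points of cell class and library, as Pearson r with the mean of the 9 genes, among 11963 genes. The first 3 were *Otop3*, a proton channel (r = 0.954), *Clca1* (r = 0.951) and *Cnga3*, the alpha subunit of the same channel as *Cngb3* (r = 0.9495). They were followed by *Gm27239*, *Gm42697*, *Gsc2*, *Cckbr*, *Il9r*, *Gm38389* and *Gm15348*, with r from 0.916 to 0.933. *Otop3* and *Cnga3* were also among the markers of the cone cluster. Points of one library share their depth and their free RNA. The members' own r ran from 0.895 for *Cngb3* to 0.982 for *Pde6h*, with *Thrb* at 0.495.

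The rod paralogs of the members were the mirror image, but not uniformly. Of 9 rod counterparts, 7 (control), 7 (CCA) and 9 (CCANT) were at least 2-fold lower in cones than in rods, with medians of -4.77, -4.54 and -3.84 on the log2 scale, where all genes had 9.50%, 8.98% and 7.75% lower. *Sag*, the rod arrestin, was at 2723, 3769 and 3292 CPM in cones against 5980, 6399 and 6799 in rods, and *Pde6g*, the inhibitory subunit of the rod enzyme, at 1078, 1328 and 1505 against 1808, 2145 and 3072. Over the libraries pooled these were the smallest differences of the list, although *Gngt1*, the rod transducin gamma subunit, was closer than *Sag* in the control (-0.98 against -1.14). *Cnga1* and *Pde6b* had the largest pooled differences, with log2 ratios of -5.30 to -4.37 and -5.09 to -4.50.

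Of 11 phototransduction genes listed as shared, none was 2-fold higher and 6, 5 and 5 were 2-fold lower in cones, beside 15.5%, 12.7% and 15.1% of all genes higher and 9.50%, 8.98% and 7.75% lower. The list also holds *Gucy2f* and *Gnb1* of rods, so the lower genes are not all shared by rods and cones. *Guca1a*, which activates guanylate cyclase at low calcium, led with log2 0.73, 0.84 and 0.67, followed by *Rgs9*, which speeds transducin shut-off (-0.25, -0.11 and -0.24). *Gucy2f* and *Gnb1*, the cyclase and transducin beta subunit of rods, were lowest at -4.88 to -4.60 and -4.71 to -4.15. Of 10 other cone genes, 8 were 2-fold higher in each library, with medians of 6.17, 6.43 and 6.29. All but *Gucy2e* were among the 9 markers that named the cone cluster, so their higher level in cones is what chose the cells and not a result. *Otop3* and *Cnga3* led that list, *Otop3* with 0 UMIs in control and CCA rods, and *Gucy2e* (-0.55 to -0.44) and *Smug1* (0.57 to 0.90) were lowest.

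Of 12 photoreceptor transcription factors, 3, 3 and 4 were 2-fold higher in cones and 5, 4 and 5 lower, beside the same shares of all genes (15.5%, 12.7% and 15.1% higher, 9.50%, 8.98% and 7.75% lower). *Sall3*, a zinc finger factor of cones, was at 109, 102 and 85.7 CPM in cones and at most 0.281 CPM in rods, and *Rxrg*, a marker of the cone cluster, at 66.2, 83.6 and 63.1 against at most 0.943. *Nr2e3* and *Nrl*, the factors that set rod identity, were lowest at log2 -4.99 to -4.38 and -4.91 to -4.12. Of 10 synapse genes, 1 was 2-fold higher (*Lrit3*, 1.38 to 1.84) and 1 lower (*Cacna2d4*, -1.29 to -1.11) in every library, near the shares of all genes, with *Slc17a7* at 0.25 to 0.59 and *Pclo* at -0.68 to -0.49.

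Both opsins were found together in 43.9 to 49.8% of cones. With every cone thinned to 3000 UMIs, at least 1 UMI of each opsin was counted in 82 of 173 control cones (47.4%, 39.8 to 55.1%), 142 of 285 CCA cones (49.8%, 43.9 to 55.8%) and 125 of 285 CCANT cones (43.9%, 38.0 to 49.8%). The 3 intervals overlapped. Among rods thinned alike, both were found in 0 of 851, 3 of 1364 and 2 of 1282 cells, and among cone bipolar cells in 0 of 343, 2 of 528 and 2 of 563. For the count of 0 in control rods the limit is 0.353%, which bounds detection at 3000 UMIs per cell and not the share of rods that hold both. Without thinning the cone shares were 59.0%, 58.6% and 53.3% at the medians of 13789, 13560 and 13382 UMIs. The share turned on which cells were counted. In cells picked cell by cell from cone markers (201, 347 and 242 cells, of which 66, 122 and 109 were in the cone cluster and 43, 115 and 49 in the rod class) it was 17.9%, 18.2% and 19.4%. Most of these cells lay outside the cone cluster, so those shares also reflect which cells were picked. In the few cones with a tdTomato UMI the share was 21.1%, 61.5% and 50.0%.

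*Opn1mw* was the more widespread of the opsins. It was detected in 93.1% of control, 91.6% of CCA and 87.4% of CCANT cones at 3000 UMIs, and *Opn1sw* in 53.8%, 57.9% and 54.7%. Cones with *Opn1mw* alone made 45.7%, 41.8% and 43.5%, cones with *Opn1sw* alone 6.36%, 8.07% and 10.9%, and cones with neither 0.578%, 0.351% and 1.75%. In rods *Opn1sw* was detected in 3.06 to 3.96% and *Opn1mw* in 1.88 to 3.52% of cells.

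The amounts of the opsins ran against each other. Each Pearson r in this paragraph was taken on log2(UMIs + 1). Over cones thinned to 3000 UMIs, Pearson r between *Opn1sw* and *Opn1mw* was -0.39 (control, n = 173), -0.61 (CCA, n = 285) and -0.48 (CCANT, n = 285), with Spearman rank correlations of -0.45, -0.64 and -0.52. The other 35 pairs of members had median r of 0.22, 0.12 and 0.18. *Thrb* had r of 0.27, 0.34 and 0.30 with *Opn1mw* and of -0.06, -0.21 and -0.20 with *Opn1sw*. Cells of 1 library share its preparation and their total is fixed by the thinning, so these are descriptions.

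**Figure D3:**
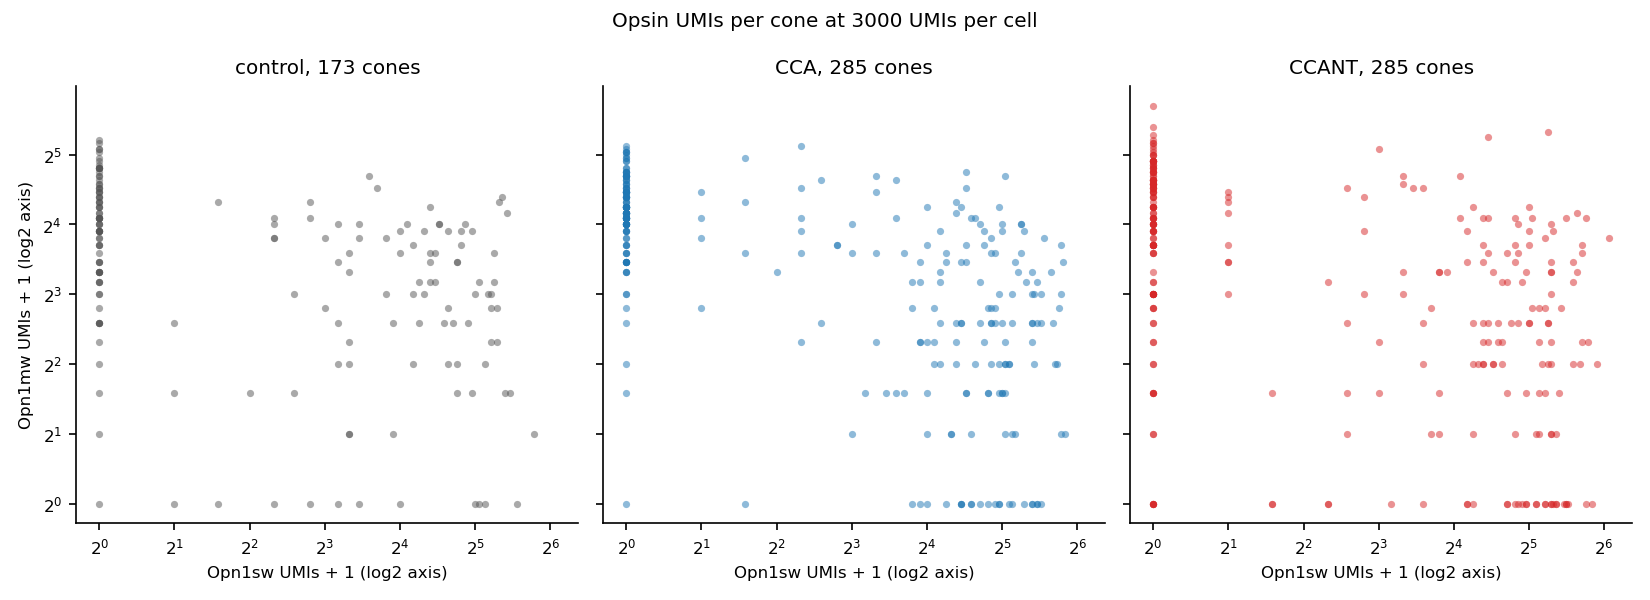
UMIs + 1 of *Opn1sw* against *Opn1mw* (log axes) in each cone after thinning to 3000 UMIs, 1 panel per library with 173, 285 and 285 cones. Many cones lie along the axis with no *Opn1sw* UMI, few along the axis with no *Opn1mw* UMI, and the rest spread between them, with r of -0.39, -0.61 and -0.48.

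The balance of the opsins was then read as the *Opn1mw* share of all opsin UMIs in cones with at least 10 of them, which kept 170, 284 and 278 cones. The median share was 68.7% (control), 54.9% (CCA) and 61.7% (CCANT). Cones with a share under 10%, called *Opn1sw*-dominant here, numbered 15 (8.82%, 5.02 to 14.1%), 44 (15.5%, 11.5 to 20.2%) and 51 (18.3%, 14.0 to 23.4%). Cones with a share over 90%, called *Opn1mw*-dominant, made 45.3%, 43.0% and 45.3%, and the cones between made 45.9%, 41.5% and 36.3%. At the upper end 75, 120 and 124 cones had a share of at least 95%, and only 3, 7 and 2 cones lay within 5 percentage points of the 90% cut. At the 10% cut 11, 43 and 30 cones lay that near, so the lower cut divides a continuous range. The control and CCANT shares of *Opn1sw*-dominant cones had intervals that met only between 14.0 and 14.1%. The dorsal or ventral position of the dissected areas is not given, so area and treatment cannot be told apart in these shares.

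Across these ranges *Arr3* and *Thrb* were lower in *Opn1sw*-dominant than in *Opn1mw*-dominant cones in every library. *Arr3* was at 4030.2 against 6092 (control), 4423 against 7486 (CCA) and 3947 against 7033 CPM (CCANT), log2 ratios of -0.60 (-0.71 to -0.48), -0.76 (-0.82 to -0.70) and -0.83 (-0.89 to -0.78). *Thrb* was at 941 against 1350.0, 889 against 1388 and 844 against 1253 CPM, log2 ratios of -0.52 (-0.76 to -0.29), -0.64 (-0.78 to -0.51) and -0.57 (-0.70 to -0.45). The cones between the cuts had intermediate *Arr3* in each library (4929.5, 5379.5 and 5309.8 CPM). For *Thrb* they were intermediate in CCA and CCANT (1114 and 1128 CPM) and at 1387 CPM in the control.

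Of the other 5 members, *Pde6h* alone held one direction in the 3 libraries. *Gnat2* was higher in *Opn1sw*-dominant cones in the control (0.34) and CCA (0.23) but not in the CCANT library (-0.01, -0.10 to 0.08), and *Gngt2* was at -0.10, 0.34 and 0.05. *Pde6h* was lower by a little in each library (-0.10, -0.10 and -0.29), *Pde6c* at 0.09, -0.02 and -0.25, and *Cngb3* at -0.28, 0.10 and -0.13. None of the 7 members outside the opsins differed 2-fold in all 3 libraries, where 0.176% of 5674 genes were higher and 0.546% lower by that rule. *Opn1sw*-dominant cones were somewhat shallower, with median UMIs of 9311, 12238.5 and 11685 against 14764, 14754.5 and 14099.5.

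Of the 10 other cone genes, *Ccdc136* and *Smug1* divided the ranges more sharply than any of these members. *Ccdc136* was at 2244 against 87.4 (control), 2121 against 62.3 (CCA) and 1774 against 55.7 CPM (CCANT), log2 ratios of 4.68, 5.09 and 4.99. By GENCODE M21 *Ccdc136* starts 7.84 kb from the annotated span of *Opn1sw* on chromosome 6 (29376671 to 29388468), on the other strand. That span reaches upstream of the RefSeq start used for the printed window, so *Ccdc136* lies further from that start. *Smug1*, which removes uracil from DNA, ran the other way with log2 ratios of -3.20, -2.73 and -2.69, and *Kcne2*, a potassium channel subunit, was highest between the cuts (597, 681 and 559.6 CPM) and lowest in *Opn1mw*-dominant cones (186, 292 and 211 CPM). *Gnb3*, the cone transducin beta subunit, was 0.63, 0.36 and 0.24 higher on the log2 scale in *Opn1sw*-dominant cones. *Cnga3*, *Slc24a2*, *Cd59a* and *Otop3* lay between -0.30 and 0.49, *Gucy2e* between 0.23 and 0.33 and *Rxrg* between 0.42 and 0.69.

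Of all genes tested between the ranges, 10 were at least 2-fold higher and 31 at least 2-fold lower in *Opn1sw*-dominant cones in all 3 libraries. Chosen after their values were seen, *Tenm3* (148.8, 183 and 228 against 44.8, 48.9 and 60.8 CPM) and *Eya1* (143, 109.6 and 112 against 23.1, 32.2 and 33.4 CPM) are examples of the first. *Cdh12*, a cadherin, at 5.95, 3.48 and 2.51 against 126, 207 and 225 CPM, and *Samd7*, at 11.9, 12.2 and 10.04 against 105.5, 136 and 115 CPM, are examples of the second. The minimum of 50 UMIs applied to both sums together, and the control sums were 167982 (*Opn1sw*-dominant) and 1383700 UMIs (*Opn1mw*-dominant). Genes high in *Opn1mw*-dominant cones thus entered at lower CPM, as *Cdh12* and *Samd7* did through that side. The numbers 10 and 31 are therefore not comparable. The ranges were cut from the opsins themselves in the same cells, and the other genes entered neither cut.

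**Figure D4:**
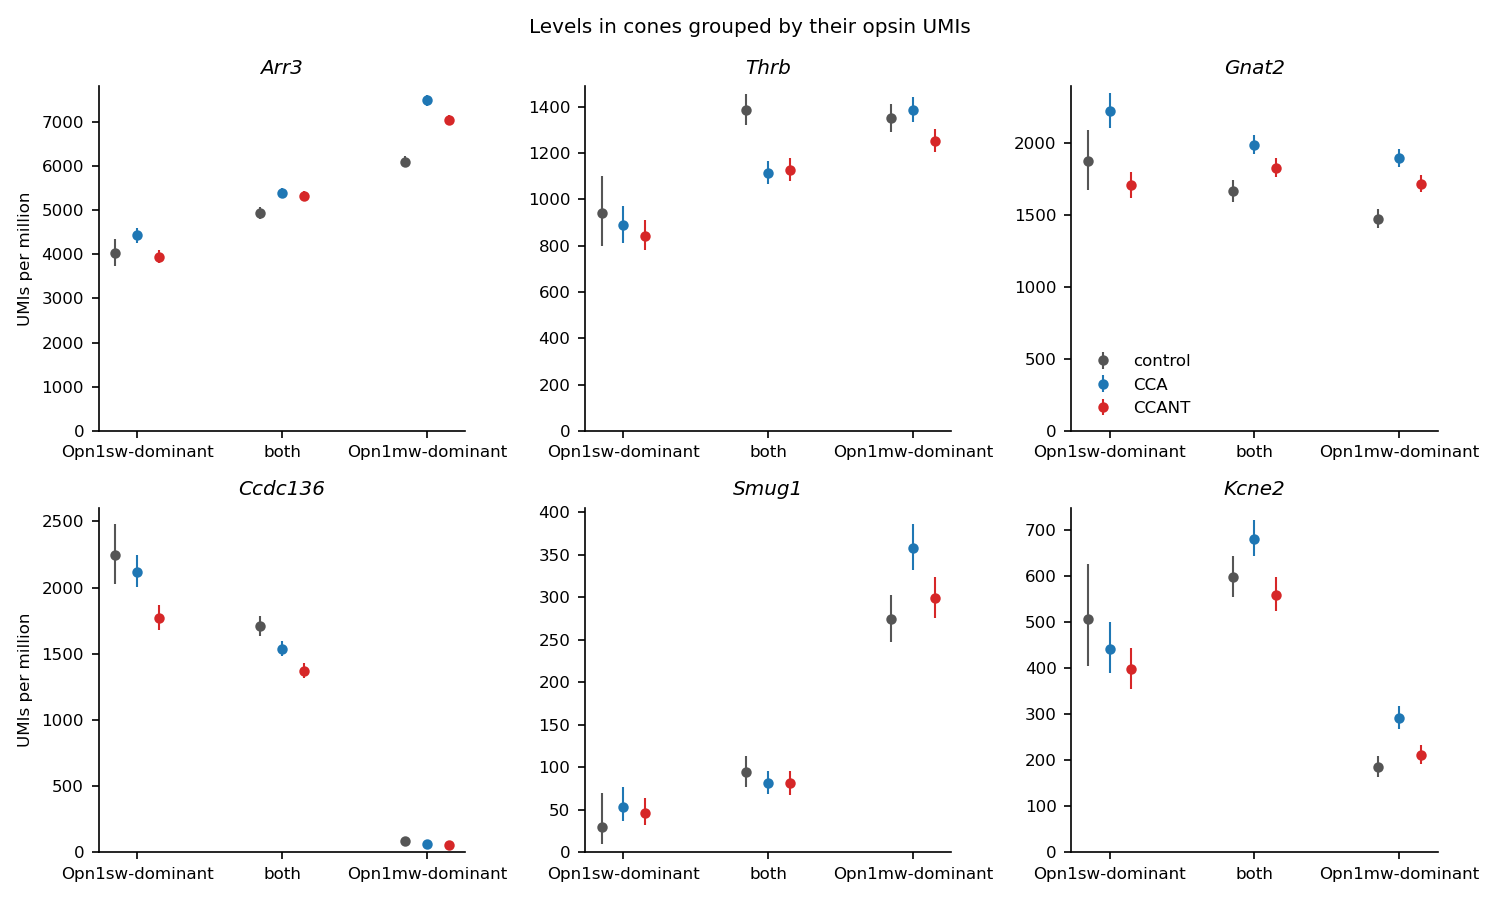
CPM of *Arr3*, *Thrb*, *Gnat2*, *Ccdc136*, *Smug1* and *Kcne2* in *Opn1sw*-dominant cones, cones between the cuts and *Opn1mw*-dominant cones, by library with exact 95% Poisson bars. *Arr3* climbs from 3947 to 4423 CPM in the first range to 6092 to 7486 CPM in the last, while *Ccdc136* drops from at least 1774 to at most 87.4 CPM.

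Between libraries the cone genes moved by small amounts in cones. The CCA and CCANT ratios share the control library, and the area of retina dissected can differ between libraries. In CCA over control, 0 of the 9 genes differed 2-fold, beside 3.10% of 10688 genes. *Opn1sw* had the largest ratio, 0.62 (0.58 to 0.66), followed by *Gnat2* at 0.33 (0.28 to 0.39) and *Gngt2* at 0.29 (0.25 to 0.33). *Thrb* alone lay below 0, at -0.15 (-0.21 to -0.09). The sum of the 9 genes was 28149.9 CPM in control and 32935 CPM in CCA cones, a log2 ratio of 0.23 (0.21 to 0.24) where the median over all genes was -0.004. It was 0.58 in cones with a tdTomato UMI and 0.43 in cells picked cell by cell, most of them outside the cone cluster. Of 2 settings chosen after seeing the data, leaving out the cells of the 5% highest doublet scores gave 0.11. The larger of the cone clusters at a finer resolution gave 0.09. The smaller of these clusters held 88 cells with a median of 31991 UMIs, against 13080 in the larger, and MG markers were its second list at a median log2 of 1.72; their part in the sum was not tested.

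In CCANT over control, again 0 of the 9 genes differed 2-fold, beside 1.68% of 10920 genes. *Opn1sw* was at 0.50 (0.46 to 0.54) and *Gngt2* at 0.28 (0.25 to 0.32), *Opn1mw* at -0.03 (-0.07 to 0.004), *Pde6c* at -0.08 (-0.13 to -0.03) and *Thrb* at -0.24 (-0.30 to -0.17). The other 4 genes lay between 0.07 and 0.15. The sum was at 30725 CPM, a log2 ratio of 0.13 (0.11 to 0.14). This ratio became 0.35 in cones with a tdTomato UMI and 0.75 in cells picked cell by cell. Of the latter, 66 of 201 control and 109 of 242 CCANT cells lay in the cone cluster, so that value also reflects which cells were picked. The ratio of the sum was 0.02 without the 5% highest doublet scores and 0.36 in cones with Y-linked UMIs only, both alternatives chosen after seeing the data.

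Beside these, cones of the CCANT library held more rod transcripts. The rod counterparts had a list median log2 ratio of 0.62 in CCANT over control, with *Gnat1*, the rod transducin alpha subunit, at 1.18 and *Cnga1*, a subunit of the rod channel, at 1.04, against a list median of 0.19 in CCA over control. Their part in the ratios of the cone genes was not tested.

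**Figure D5:**
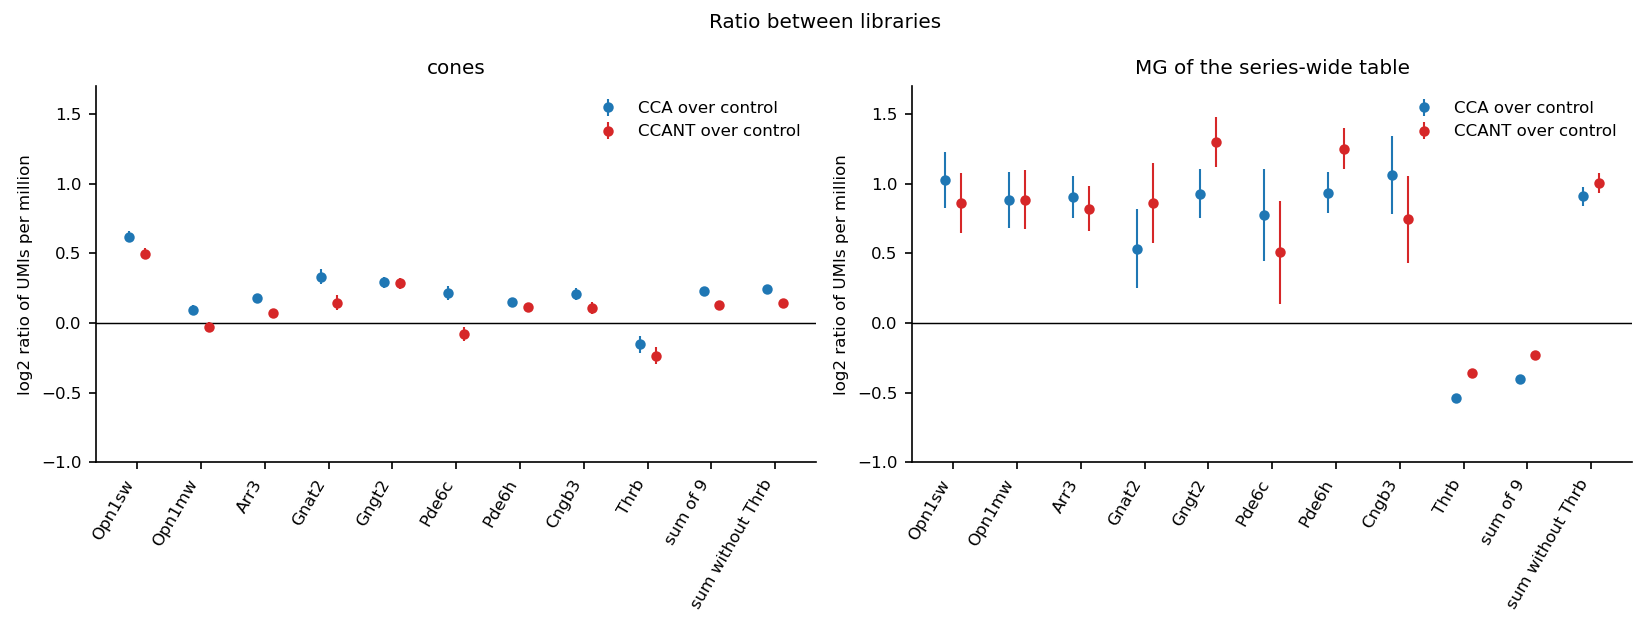
Log2 ratios of CCA over control and CCANT over control for the 9 genes in cones (left) and in MG of the series-wide table (right), with exact 95% intervals for counting error. In cones all ratios lie between -0.24 and 0.62, and in MG the 8 genes other than *Thrb* lie between 0.51 and 1.30 with *Thrb* at -0.54 and -0.36.

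Since the libraries differed in sex, the members were set side by side between sexes inside the CCANT library, with 122 *Xist* and 111 Y-linked cones. *Opn1mw* was at 3271 CPM in *Xist* and 4490.4 CPM in Y-linked cones, a log2 ratio of -0.46 (-0.51 to -0.41), the largest of the 9. The other X-linked member, *Arr3*, was at -0.16 (-0.20 to -0.12), no further from 0 than the autosomal *Pde6h* (-0.28), *Gnat2* (-0.18) and *Pde6c* (-0.17). *Opn1sw* (-0.01, -0.06 to 0.04) and *Cngb3* (0.03, -0.03 to 0.08) had intervals that span 0. The number of mice of each sex in the pool is not given, so sex and mouse cannot be told apart.

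Within one sex the ratios to the other libraries changed. Y-linked CCANT cones over Y-linked control cones had *Opn1sw* at 0.64 (0.59 to 0.69), *Gngt2* at 0.51, *Opn1mw* at 0.31 (0.27 to 0.36) and *Thrb* at -0.09 (-0.17 to -0.01). *Xist* CCANT cones over CCA cones had *Opn1mw* at -0.25 (-0.29 to -0.21), *Pde6c* at -0.28 and a sum of the 9 genes at -0.10 (-0.11 to -0.08). *Opn1mw* was thus at -0.03 for CCANT over control with cones of both sexes and at 0.31 within Y-linked cones. The sex rule also left out 29 control and 52 CCANT cones. In CCANT the sum of the 9 genes was 35093 CPM in Y-linked and 30827 CPM in *Xist* cones, both above its level over all CCANT cones. The part of the cones left out in these shifts was not tested.

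In MG of the series-wide table (3716 control, 3652 CCA and 2838 CCANT cells) the 8 genes other than *Thrb* were at trace levels. They stood at 1.39 to 6.60 (control), 2.37 to 12.6 (CCA) and 1.97 to 15.7 CPM (CCANT), which was 0.0728 to 0.297% of the level in cones. *Thrb* was at 494 (control, 489.5 to 499), 339.9 (CCA, 336 to 344) and 386 CPM (CCANT, 381 to 391), 37.0%, 28.3% and 34.1% of its cone level. *Thrb* UMIs were thus most of the sum of the 9 genes in MG.

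The 8 genes were higher in both treated libraries, and *Thrb* was lower. In CCA over control the 8 genes had log2 ratios from 0.53 (*Gnat2*) to 1.06 (*Cngb3*), with *Opn1sw* and *Cngb3* at least 2-fold higher, beside 5.36% of genes, and *Thrb* at -0.54 (-0.56 to -0.52). In CCANT over control they ran from 0.51 (*Pde6c*) to 1.30 (*Gngt2*), with *Gngt2* and *Pde6h* at least 2-fold higher, beside 4.75% of genes, and *Thrb* at -0.36 (-0.38 to -0.33). The sum of the 9 genes was therefore at -0.40 and -0.23, and without *Thrb* at 0.91 (0.84 to 0.98) and 1.00 (0.93 to 1.07). In rods *Opn1sw*, *Gngt2*, *Pde6h* and *Cngb3* were at least 2-fold higher in CCANT over control, beside 1.13% of genes, but with the rod richest in each gene left out of each library, an alternative added after seeing the data, *Opn1sw* was at 0.53 on the log2 scale and no longer 2-fold higher, and *Cngb3* at 1.17, *Gngt2* at 1.40 and *Pde6h* at 1.43. In MG the same step left the 2-fold calls in place.

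The 8 genes gave at most 32 UMIs in a control, 182 in a CCA and 68 in a CCANT cell of the series-wide table. These lay below the 10th percentile of cones in each library, which was 137, 301 and 216 UMIs beside medians of 452, 465 and 491. The authors had removed other cell types from the table, so the lack of cells at typical cone levels is not a result. The lowest cones held 13, 71 and 74 UMIs, so the highest control and CCA cells of the table were above the lowest cone of their library. At least 5 such UMIs were found in 0.905% of control cells (0.627 to 1.26%), 2.37% of CCA cells (1.91 to 2.89%) and 2.59% of CCANT cells (2.08 to 3.20%). The rod counterparts were also higher in MG of the treated libraries, at 284 (control), 466 (CCA) and 654 CPM (CCANT) over all MG. For each 100 UMIs of rod counterparts MG held 10.6, 12.1 and 9.14 UMIs of the 8 cone genes, where rods held 0.305, 0.448 and 0.488 and cones 461, 426 and 356. The part of free photoreceptor RNA in the MG levels was not tested.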

How the data were processed

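Retinal cells sorted for tdTomato were captured with 10x Genomics 3′ v3.1 chemistry in 3 libraries, 1 for each group. The authors deposited, for each library, whole-number UMI counts per gene and barcode without normalization, made with Cell Ranger 6.1.1 on mm10 per the submitters' processing notes, and the methods add tdTomato and GFP sequences and the counting of intronic reads. They also deposited a merged table of counts for 10926 cells that passed quality control, a tdTomato filter and doublet removal. Small clusters of cell types other than MG and rods, and a subcluster judged contaminated by rods, had been removed from it as well. That table lacks *Xist* and Y-linked genes and holds a median of 93.1% of the UMIs of control cells, so values were taken from the library matrices. The libraries held 224515457, 219051219 and 222497877 UMIs (control, CCA, CCANT) in 12482, 14201 and 15923 barcodes, and counting error is small for the members in cones and larger in rods for the members other than *Thrb*. Paper and labels differ on the tamoxifen schedule, the day of harvest and the name of the control shRNA, and the labels were followed.

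Filters kept cells of 2000 features or more, 100000 UMIs or fewer and no more than 15% mitochondrial UMIs, and these were clustered (scanpy 1.11.5, leidenalg 0.10.2; 2000 variable genes, 20 components, 20 neighbours, resolution 0.5) without the members, sex-linked genes and transgenes. Clusters took class names from marker lists that hold no member. UMIs were summed per class and library and given as CPM. Ratios carry exact conditional intervals, calculated with scipy 1.17.1 and tested on simulated counts, and a gene entered a comparison with at least 50 UMIs in both sums together. At least 2-fold was the rule for a difference. Shares of cells used cells thinned to 3000 UMIs, with a limit of 3 counts for a count of 0. Doublets were not removed from the library matrices, so the cones passed no doublet filter in the main values. Alternatives covered the resolution, tdTomato, a per-cell definition of cones, size factors, the mean over cells, the thinning, the minimum of opsin UMIs, the cells of the merged table and doublet scores.

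The genes named are the 9 members, up to 4 genes of each list (the 2 highest and the 2 lowest ratios of cones over rods among rod counterparts, phototransduction genes listed as shared, other cone genes, transcription factors and synapse genes), the 10 genes most like the members, and cone genes by opsin range. Named beyond this rule are *Gngt1* and *Gnat1* of the rod counterparts. So are *Tenm3*, *Eya1*, *Cdh12* and *Samd7*, chosen after their values were seen. The members, lists and markers were chosen with earlier results of these data known. A gene of the rod counterparts list is not reported here by name.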

Additional observations from a re-analysis of the deposited data

Results flagged for a closer look

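The sum of the 9 genes moved in opposite directions in cones and in MG of the series-wide table. In cones its log2 ratio was 0.23 for CCA over control and 0.13 for CCANT over control, and in MG it was -0.40 and -0.23. The difference was not tested. *Thrb* holds most of the sum in MG and little of it in cones, and without *Thrb* the MG ratios were 0.91 and 1.00.

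Barcodes that failed the filters on features, UMIs or mitochondrial share entered no comparison and still carried the 8 genes other than *Thrb*, at 366 (control), 454 (CCA) and 450.0 CPM (CCANT). These levels were above those of MG of the series-wide table, which were 29.8, 56.0 and 59.8 CPM.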

How the results depend on the processing

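No paired analysis was possible because each group is 1 library. Of 9 results under their alternatives, 20 values stayed within their counting interval, 33 moved beyond it with their direction kept, and 2 reversed: without *Thrb* the sum of the genes in MG was 0.91 for CCA over control and 1.00 for CCANT over control, against -0.40 and -0.23. For the sum in cones in CCA over control (0.23) the values were 0.58 in cells with tdTomato, 0.43 in cells picked cell by cell, 0.11 without the 5% highest doublet scores, 0.086 in the larger cone cluster, 0.25 with size factors, 0.17 as the mean over cells and 0.24 without *Thrb*. For CCANT over control (0.13) they were 0.11 at resolution 1.0, 0.35 with tdTomato, 0.75 cell by cell, 0.022 without the highest doublet scores, 0.10 in the larger cluster, 0.15 as the mean over cells, 0.14 without *Thrb* and 0.36 in Y-linked cones. The share of cones with both opsins (47.4%, 49.8% and 43.9%) was 21.1%, 61.5% and 50.0% with tdTomato, 17.9%, 18.2% and 19.4% cell by cell, and 59.0%, 58.6% and 53.3% without thinning, and with at least 3 UMIs of each opsin it was 39.3% in CCA and 34.4% in CCANT. In MG the CCA sum was -0.38 over all cells of the table, -0.35 without cycling clusters, -0.48 with size factors and -0.43 as the mean over cells, and the CCANT sum -0.25 over all cells and -0.27 with size factors. *Opn1mw* between sexes was -0.39 with 1 sex-linked UMI in place of 3 (-0.46). The cause of these shifts was not tested. The cell-by-cell rule took 201, 347 and 242 cells, of which 66, 122 and 109 lay in the cone cluster. Scrublet calls were not used, since it called 479 CCA cells and 0 in the other libraries. The values without *Thrb*, by doublet score, in the larger cluster, in Y-linked cones and without single rich cells were added after seeing the data. The limits are 1 library per group, pooled mice, mixed sexes, a sort that does not select cones and few *Opn1sw*-dominant cones in the control (15). The unstated dorsal or ventral position of the dissected areas is a further limit.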
